A study of Mus musculus with 6 samples.

Results

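The actin-based contractile machinery and its transcription factor were examined in mouse embryonic stem cells in which Nat10 was lowered. The 10 genes were taken by symbol from the deposited count table, which holds 31641 genes: the transcription factor gene Srf, the actin genes Acta2 and Actg2, the myosin light chain gene Myl9, the tropomyosin genes Tpm1 and Tpm2, the caldesmon gene Cald1, the calponin genes Cnn1 and Cnn2, and Tagln. All 10 were found in the table, and all 10 had enough reads to be tested. The cells were E14, a mouse embryonic stem cell line, sequenced as poly(A)-selected RNA in 6 libraries. The knockdown libraries (KD, n = 3) carried the genotype label Nat10 KD and came from cells treated with Dox (doxycycline), and the control libraries (CON, n = 3) carried the label Nat10 WT and came from cells without Dox. Nat10 encodes an acetyltransferase that places N4-acetylcytidine on RNA, and the series title links it to pluripotency and to the 2C state of cultured stem cells. Every KD library received Dox and no CON library did, so the effects of the drug and of the knockdown cannot be told apart. The labels do not describe the knockdown construct, the length of treatment or the origin of the replicates; p-values therefore rest on the spread between these libraries alone, and that spread may be technical.

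Srf, serum response factor, binds a DNA element called the CArG box. It is brought to its targets by either of 2 kinds of partner. The myocardin-related factors Mrtfa and Mrtfb are held in the cytoplasm by unpolymerised actin and released when actin filaments are built. They drive genes of the cytoskeleton, and their relative Myocd partners SRF in muscle. The ternary complex factors (Elk1, Elk3, Elk4) respond to ERK signalling and drive immediate early genes. In smooth muscle the 10 genes, apart from Srf itself, encode parts of the contractile filaments, and several of them are used as smooth muscle markers. In stem cells some also serve the non-muscle cytoskeleton, where they stabilise actin filaments.

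The libraries held from 33770755 to 39524273 counts in KD and from 35304394 to 39450202 in CON. Nat10 had 1100, 1164 and 1050 counts in KD, against 4960, 5496 and 4877 in CON (log2 fold change -2.44, SE 0.05, edgeR adjusted p = 4.21e-14). All 10 of a list of embryonic stem cell markers were detected in every group and all 10 were lower in KD, with a summed level of 2377 to 2493 CPM, counts scaled to a common library total, in KD and of 6767 to 6816 CPM in CON. All CPM values here are scaled by TMM, which corrects library size for RNA composition. Means stand with their SD (n = 3 in each group). Fold changes are KD over CON, with p-values from edgeR's quasi-likelihood test adjusted over all 18019 genes tested and a threshold of 0.05. By this test 30.8% of all genes tested were lower in KD. Fewer cells that express a gene and less of its RNA in each cell cannot be told apart in these bulk samples.

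Because these genes are grouped as SRF targets, the stretches upstream of their start sites were searched for the CArG box. Its consensus is 10 bases long, C and C, then 6 bases that are each A or T, then G and G, and it reads the same on both strands. Windows from 250 bases before to 50 bases after the RefSeq start (GRCm38.p6) were at hand for 8 of the 10 genes, with 2 windows for Cald1, and none for Tagln and Actg2. The consensus occurred in the windows of Srf, Cnn2 and Myl9, against 1.63% of all 32851 windows. It occurred with up to 1 mismatch in 6 of the 8 genes, adding Acta2, Tpm1 and Cald1, against 21.1% of all windows. Cald1 had such a site in only 1 of its 2 windows. The 6 of 8 counts genes and the 21.1% counts windows, so the 2 are not like measures. The stretches of the 3 genes with a consensus box are shown because these genes differ in their change, with the boxes in capitals. They run from base -250 to the last base before the gene's first annotated exon, on build GRCm38.p6, at chr17:46556176-46556412 (reverse strand) for Srf, chr10:79988350-79988583 (forward strand) for Cnn2 and chr2:156775214-156775419 (forward strand) for Myl9.
Srf: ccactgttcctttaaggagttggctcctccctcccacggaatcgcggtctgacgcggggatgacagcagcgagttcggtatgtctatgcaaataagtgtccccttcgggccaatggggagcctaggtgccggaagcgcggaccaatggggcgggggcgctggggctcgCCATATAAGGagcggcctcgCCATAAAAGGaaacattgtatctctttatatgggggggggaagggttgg
Cnn2: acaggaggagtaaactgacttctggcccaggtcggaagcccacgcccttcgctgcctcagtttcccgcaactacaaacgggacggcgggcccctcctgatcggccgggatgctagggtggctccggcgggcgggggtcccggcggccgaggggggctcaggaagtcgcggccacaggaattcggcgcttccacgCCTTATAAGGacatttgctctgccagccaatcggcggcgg
Myl9: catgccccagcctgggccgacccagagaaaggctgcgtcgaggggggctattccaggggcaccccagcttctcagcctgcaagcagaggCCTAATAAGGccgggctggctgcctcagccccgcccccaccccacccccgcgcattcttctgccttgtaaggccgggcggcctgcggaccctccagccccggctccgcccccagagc
Srf held 2 boxes, from -82 to -73 and from -62 to -53, Cnn2 held 1 from -56 to -47, and Myl9 held 1 from -161 to -152. Acta2 had a pair of sites with 1 mismatch each, CCCTATATGG from -84 to -75 and CCTTGTTTGG from -34 to -25. A match is a description of the letters and was not tested as a binding site.

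The genes did not move as 1 block. Of the 10, 4 were higher in KD (Myl9, Tpm1, Tpm2 and Cald1), 2 were lower (Srf and Acta2) and 4 did not pass the test (Cnn1, Cnn2, Tagln and Actg2). Over all genes tested, 63% passed the same test, 32.2% as higher and 30.8% as lower, so the 6 of 10 that passed lie near the background. The median log2 fold change of the 10 was 0.14, against 0.02 for all genes tested. The changes were modest: among those that passed, the median change in either direction was 1.26-fold for the 6 genes and 1.53-fold for all 11344 genes. The 6 that passed were also the ones whose KD and CON libraries did not overlap, which held for 67.1% of all genes tested.

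**Figure D1:**
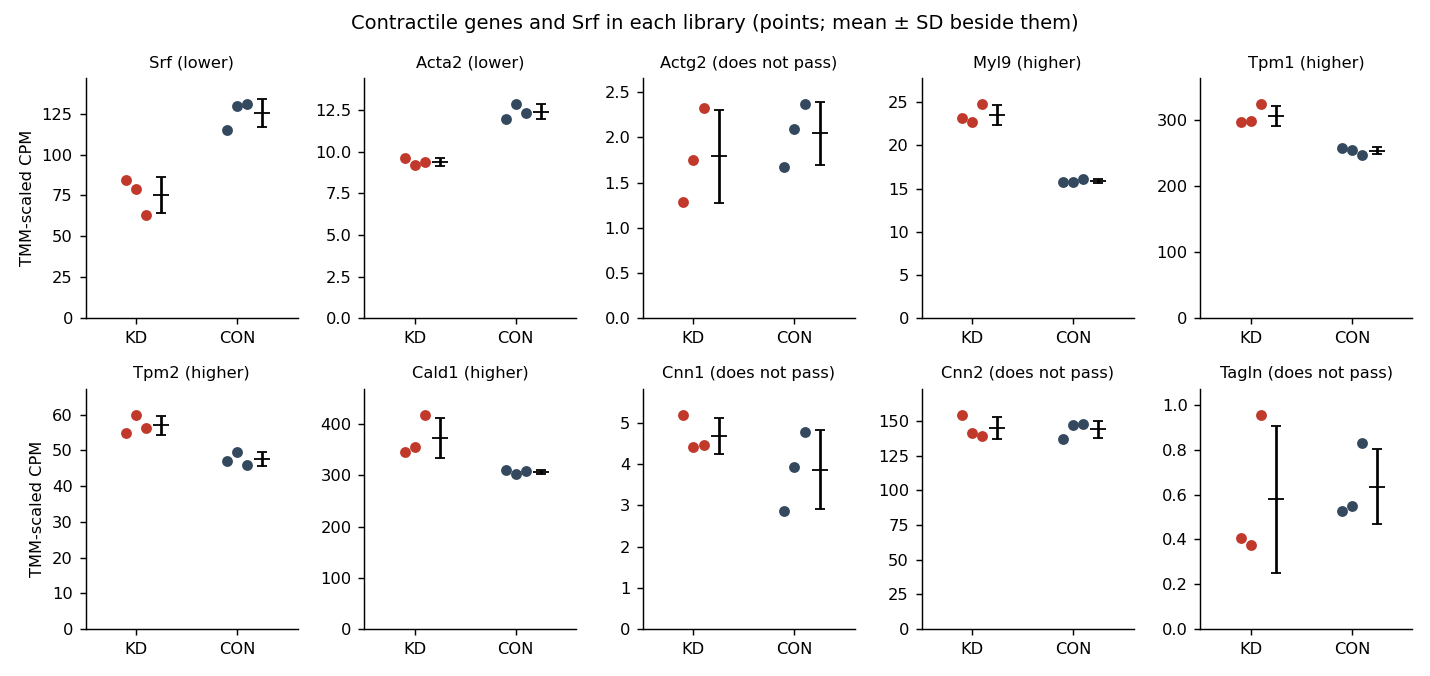
TMM-scaled CPM (y axis, starting at 0) of each of the 10 genes in the 3 KD and 3 CON libraries (points), with the mean and SD beside them (n = 3). KD points of Myl9, Tpm1, Tpm2 and Cald1 all lie above the CON points, those of Srf and Acta2 all lie below, and the groups overlap for the other 4 genes.

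Srf, the transcription factor of the set, was lower in KD. Its level was 84.5, 78.7 and 63.2 CPM in the KD libraries, against 115, 130 and 131 CPM in the CON libraries. Every KD library lay below every CON library, and KD-3 was the lowest of the 6. The mean was 75.5 ± 11 CPM in KD and 125 ± 8.69 CPM in CON, lower by 1.66-fold (edgeR log2 fold change -0.73, SE 0.08, adjusted p = 1.84e-06). Without KD replicate 3 the log2 fold change was -0.62 and still passed. Srf spans bases 46548329 to 46556175 of chromosome 17, reverse strand (GENCODE M21 on GRCm38).

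The actin genes of the set were at low levels. Acta2, smooth muscle alpha actin, had 9.64, 9.18 and 9.4 CPM in KD, against 12, 12.9 and 12.4 CPM in CON. The groups did not overlap and the libraries within each group lay close together. The fall was 1.32-fold (log2 fold change -0.40, SE 0.09, edgeR adjusted p = 0.00137). With libraries scaled by size only, Acta2 kept its direction at a log2 fold change of -0.17 but no longer passed (edgeR adjusted p = 0.116). Actg2, the gamma actin of enteric smooth muscle, had 54, 75 and 85 counts in KD, against 57, 76 and 77 in CON. Its groups overlapped at 1.79 ± 0.519 CPM in KD and 2.04 ± 0.349 CPM in CON. The 95% interval of its fold, taken as 1.96 SE to either side, ran from 0.629 to 1.21. Intervals taken in this way, here and below, are narrower than the test implies. For the filamin gene Flnc, outside the set, the interval ran from 0.865 to 0.996 although its unadjusted edgeR p was 0.0575.

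Myl9, the regulatory myosin light chain of smooth muscle and non-muscle myosin II, had the largest rise of the 10 genes. It had 23.1, 22.7 and 24.8 CPM in KD, against 15.7, 15.7 and 16.1 CPM in CON. The KD libraries were all well above the CON libraries, and the spread within each group was small. The rise was 1.48-fold (log2 fold change 0.57, SE 0.08, edgeR adjusted p = 8.32e-06). Myl9 spans bases 156775420 to 156781658 of chromosome 2, forward strand (GENCODE M21 on GRCm38).

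The tropomyosin genes of the set, Tpm1 and Tpm2, rose by almost the same amount. Tropomyosins run along actin filaments and control access of myosin. Tpm1 had 297, 299 and 324 CPM in KD, against 259, 256 and 248 CPM in CON, a 1.21-fold rise (log2 fold change 0.27, SE 0.05, edgeR adjusted p = 8.19e-05). Tpm2 had 54.8, 60 and 56.4 CPM in KD, against 47, 49.7 and 46 CPM in CON, a 1.2-fold rise (log2 fold change 0.26, SE 0.06, edgeR adjusted p = 0.00118). In both genes every KD library was above every CON library. Cald1, caldesmon, which binds actin and tropomyosin and restrains myosin, had 346, 355 and 418 CPM in KD, against 310, 303 and 309 CPM in CON. KD-3 was the highest library for Cald1 and the lowest for Srf. The rise of Cald1 was 1.21-fold (log2 fold change 0.28, SE 0.06, edgeR adjusted p = 0.000729). Without KD replicate 3 its log2 fold change was 0.18 and still passed. These are totals per gene, and the muscle and non-muscle isoforms that Tpm1, Tpm2 and Cald1 make by alternative splicing cannot be separated in the counts.

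The calponins, actin-binding proteins that slow the myosin motor, did not pass. Cnn2 had 155, 141 and 139 CPM in KD, against 137, 147 and 148 CPM in CON. The groups overlapped, and the 95% interval of the fold ran from 0.938 to 1.08. Cnn1, the smooth muscle calponin, had 5.2, 4.42 and 4.46 CPM in KD, against 2.88, 3.93 and 4.79 CPM in CON. Its CON libraries spread more widely than its KD libraries, and the 95% interval of its fold ran from 0.959 to 1.54 (edgeR adjusted p = 0.175). Without CON replicate 3 it passed as higher (log2 fold change 0.45, edgeR adjusted p = 0.0475), and without CON replicate 1 its log2 fold change was 0.10 (edgeR adjusted p = 0.633).

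Tagln, transgelin or SM22 alpha, an actin cross-linker and a classic SRF target of smooth muscle, was barely detected. Its counts were 17, 16 and 35 in KD, against 18, 20 and 27 in CON. The groups overlapped and the gene did not pass (edgeR adjusted p = 0.774), with a 95% interval of the fold from 0.507 to 1.6. The gene also shares 1241 exonic bases with Gm48529 and 108 with Pcsk7 on the opposite strand, and whether the counting used strand is not stated. Gm48529 had 19, 41 and 36 counts in KD, against 6, 9 and 13 in CON, and was higher in KD (edgeR adjusted p = 0.0075).

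Scaling moved several of these calls. TMM factors were 1.08 in each KD library and 0.922 to 0.926 in the CON libraries, and with libraries scaled by size only the median log2 fold change of all genes tested was 0.25 in place of 0.02, a shift of 0.23. Under size scaling 6 of the 10 genes were higher (the same 4 plus Cnn1 and Cnn2) and 1 was lower (Srf), where 46% of all genes tested were higher and 19.6% lower, so these counts too lie near the background. The log2 fold change of Cnn2 was then 0.24, close to the shift itself. Those of Tpm1, Tpm2, Cald1 and Cnn1 were 0.50, 0.49, 0.51 and 0.51, and that of Myl9 was 0.80, all above the shifted median. Actg2 and Tagln changed sign without passing, at 0.03 and 0.08.

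**Figure D2:**
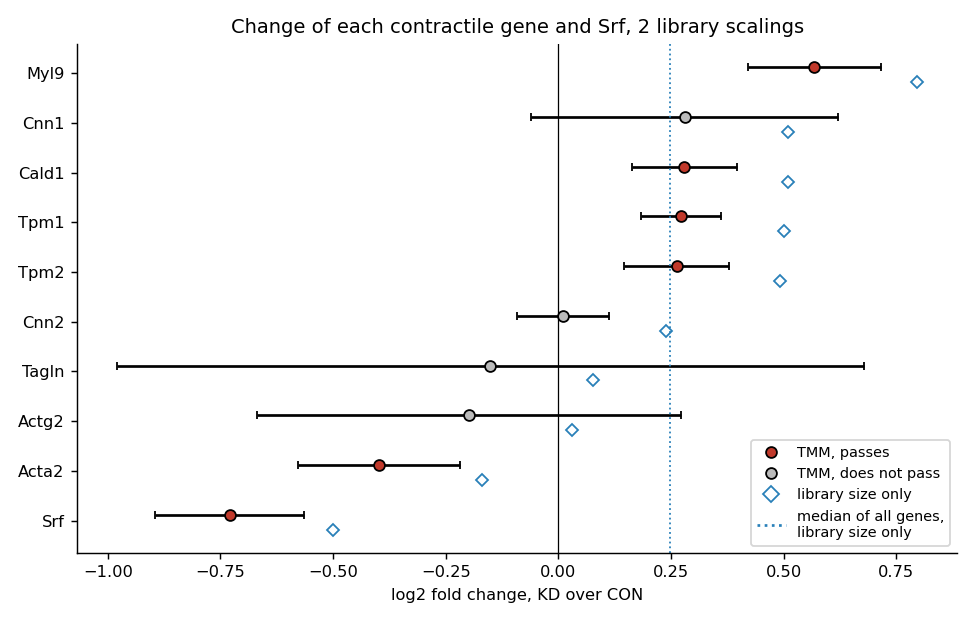
Log2 fold change of KD over CON (x axis) for each gene with TMM scaling (circles with 1.96 SE bars; red passes at adjusted p 0.05, grey does not) and with library size only (open diamonds). Size scaling moves every gene to the right by about 0.23, the shift of the median of all genes, whose place under size scaling is the dotted line at 0.25. Srf lies at -0.73 and Myl9 at 0.57 with TMM.

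On the authors' FPKM scale, which divides by gene length and library total and has no TMM correction, the levels of the 10 genes could be set side by side. In KD the order by FPKM was Cnn2 (63.8 ± 3.47), Tpm1 (51.2 ± 2.6), Cald1 (33.5 ± 3.59), Srf (28.2 ± 4.07), Myl9 (21.9 ± 1.05), Tpm2 (21.2 ± 1.02), Acta2 (4.63 ± 0.103), Cnn1 (1.85 ± 0.17), Actg2 (1.24 ± 0.363) and Tagln (0.315 ± 0.179). In CON the order by FPKM was Cnn2 (54.1 ± 2.19), Srf (40 ± 2.67), Tpm1 (36.2 ± 0.858), Cald1 (23.6 ± 0.343), Tpm2 (15.1 ± 0.601), Myl9 (12.6 ± 0.157), Acta2 (5.21 ± 0.179), Cnn1 (1.3 ± 0.321), Actg2 (1.21 ± 0.204) and Tagln (0.295 ± 0.0776). Srf thus stood below Tpm1 and Cald1 by mean FPKM in KD and above both in CON. The order between genes depends on the lengths used, which are exon unions over all annotated transcripts. They are 12041 bases for Cald1 and 6485 for Tpm1, against 2893 for Srf. By CPM, without division by length, Srf was below both in each group. Neighbours whose FPKM ranges overlapped were Cald1 and Srf, and Myl9 and Tpm2, in KD, and Srf and Tpm1, and Cnn1 and Actg2, in CON. Acta2, Cnn1, Actg2 and Tagln held the last 4 places by FPKM in both groups. On this scale the KD and CON libraries of 8 of the 10 genes did not overlap, with Cnn1 and Cnn2 added as higher, against 69.2% of all genes tested.

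**Figure D3:**
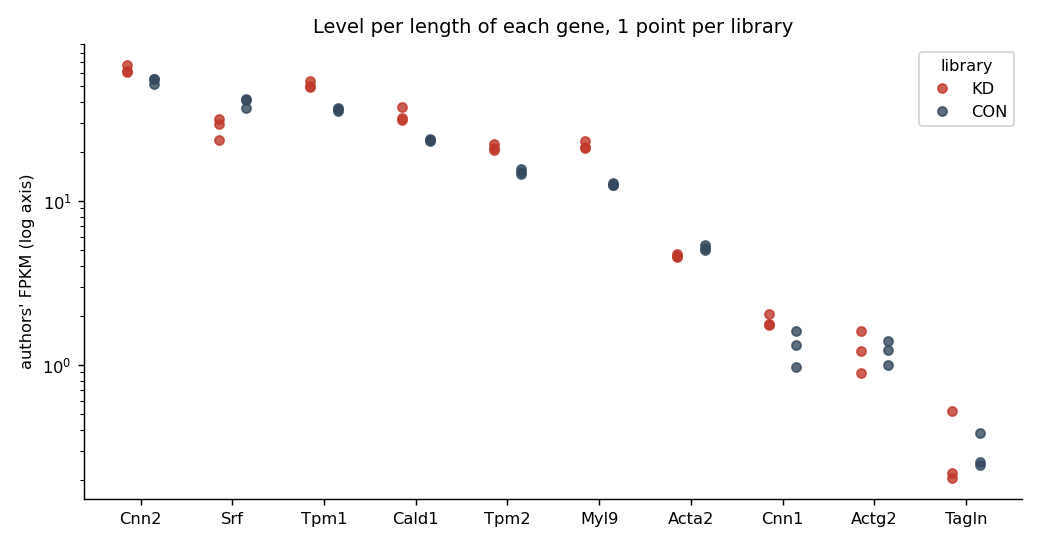
The authors' FPKM (log y axis) of each gene in each library, KD to the left of CON, with genes in order of their CON mean. Cnn2, at 63.8 in KD and 54.1 in CON, and Tagln, at 0.315 in KD and 0.295 in CON, mark the ends of the range.

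The authors' deposited table gives its own comparison as CON over KD. In the authors' deposited table the log2 fold change was 0.74 for Srf and 0.41 for Acta2, and -0.56 for Myl9, -0.26 for Tpm1, -0.25 for Tpm2 and -0.27 for Cald1, where a negative value means higher in KD. The authors' deposited table marks all 10 genes as unchanged, although the same 6 genes have an authors' adjusted p below 0.05, the largest being 0.00197 for Acta2.

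Pairs of related genes within the set were compared as count ratios within a library, which no library scaling can move. Tpm1 over Tpm2 had a log2 count ratio of 2.43 ± 0.103 in KD and 2.42 ± 0.0502 in CON. Cnn1 over Cnn2 was at -4.95 ± 0.0543 in KD and -5.24 ± 0.312 in CON, and Acta2 over Actg2 at 2.43 ± 0.442 in KD and 2.61 ± 0.226 in CON. None of the 3 ratios separated the groups (exact two-sided permutation p = 0.9, 0.3 and 0.7 in that order, each 0.9 after Benjamini-Hochberg adjustment, where the smallest p possible with 3 against 3 libraries is 0.1).

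Outside the set, paralogs of the 10 genes were examined, among them the actins that most cells use. Of 9 tested paralogs, 6 were lower in KD, none was higher and 3 did not pass; the median log2 fold change over the list was -0.41. With size scaling 5 of these 9 were lower and 2 higher. Over all genes tested, 32.2% were higher and 30.8% lower, or 46% and 19.6% with size scaling. Actb, the main cytoplasmic beta actin, had 1415 ± 76.5 CPM in KD and 2049 ± 29.6 CPM in CON, a 1.45-fold fall (edgeR adjusted p = 2.51e-08). Actg1, cytoplasmic gamma actin, had 787 ± 24.9 CPM in KD and 1206 ± 11.1 CPM in CON, a 1.53-fold fall (edgeR adjusted p = 1.76e-09). Acta1, skeletal alpha actin, fell 1.45-fold, to 23.3 ± 1.05 CPM in KD against 33.8 ± 1.15 CPM in CON, while the cardiac gene Actc1 had too few reads to be tested. The calponin gene Cnn3 fell 1.33-fold, to 313 ± 18.1 CPM in KD against 417 ± 7.19 CPM in CON, and the tropomyosin gene Tpm4 fell 1.33-fold, to 167 ± 8.34 CPM in KD against 222 ± 7.72 CPM in CON. The tropomyosin gene Tpm3 fell 1.23-fold, to 354 ± 11.9 CPM in KD against 434 ± 7.61 CPM in CON. With size scaling Tpm3 did not pass.

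Count ratios within a library show the same unequal change without any scaling, for pairs picked after their values were seen and therefore given with no test. The ratio of Tpm1 to Tpm4 counts was 1.84, 1.84 and 1.84 in the KD libraries, against 1.13, 1.19 and 1.11 in the CON libraries. The ratio of Cnn2 to Cnn3 was 0.517, 0.461 and 0.419 in KD, against 0.322, 0.359 and 0.355 in CON. The ratio of Myl9 to Myl6, the essential light chain of the same myosin, was 0.0503, 0.0512 and 0.0517 in KD, against 0.0351, 0.0348 and 0.0358 in CON. In each of these 3 pairs every KD ratio was above every CON ratio. The ratio of Acta2 to Actb was 0.00667 ± 0.000369 in KD and 0.00606 ± 0.000136 in CON, a ratio 1.1 times as high in KD. Within the set, Myl9 over Acta2 was 2.5 ± 0.12 in KD and 1.28 ± 0.0501 in CON, and Cald1 over Srf was 5.07 ± 1.35 in KD and 2.46 ± 0.2 in CON.

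**Figure D4:**
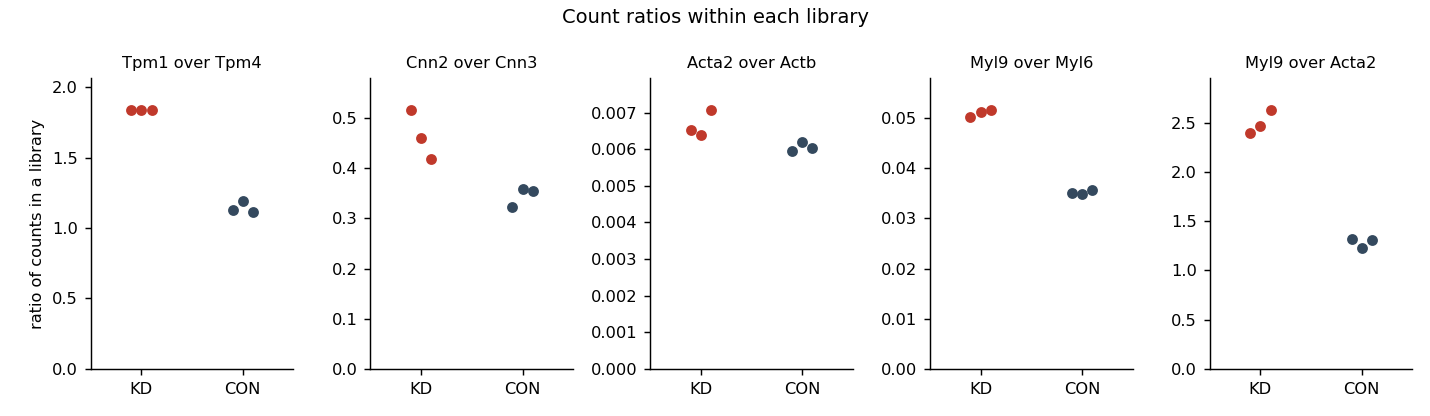
Ratio of the counts of a contractile gene to those of a second gene in the same library (y axis, starting at 0), 1 point per library. The 3 KD points lie above the 3 CON points in each panel, with means of 1.84 in KD and 1.14 in CON for Tpm1 over Tpm4 and of 2.5 in KD and 1.28 in CON for Myl9 over Acta2.

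Among 27 genes that partner SRF or carry the actin signal to it, 9 were higher in KD, 12 were lower and 6 did not pass; the median log2 fold change over the list was 0.02. With size scaling 14 were higher and 7 lower. The shares over all genes tested were 32.2% higher and 30.8% lower, or 46% and 19.6% with size scaling. The myocardin family differed among its members. Mrtfb rose 1.31-fold, to 53.2 ± 3.47 CPM in KD against 40.6 ± 0.935 CPM in CON (edgeR adjusted p = 5.64e-05). Mrtfa had 77 ± 8.24 CPM in KD and 70.5 ± 3.65 CPM in CON and did not pass (edgeR adjusted p = 0.137), though with size scaling it was higher and passed. Myocd, the cofactor of muscle, was at 0.454 ± 0.174 CPM in KD and 0.7 ± 0.107 CPM in CON and did not pass (edgeR adjusted p = 0.182).

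The ternary complex factors went in both directions. Elk1 fell 1.63-fold, to 23 ± 0.795 CPM in KD against 37.5 ± 1.18 CPM in CON (edgeR adjusted p = 1.68e-07). Elk3 rose 1.59-fold, to 20.1 ± 1.52 CPM in KD against 12.6 ± 0.373 CPM in CON (edgeR adjusted p = 5.37e-06). Elk4 fell 1.24-fold (edgeR adjusted p = 0.00538), a call that was lost with size scaling.

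Further genes of this list were named for the smallest p in either direction. The actin-nucleating formin gene Diaph3 fell 1.8-fold. Ppp1r12a, the targeting subunit of myosin phosphatase, fell 1.59-fold, to 117 ± 8.77 CPM in KD against 185 ± 5.46 CPM in CON. The less abundant profilin gene Pfn2 rose 1.81-fold and the muscle-type cofilin gene Cfl2 rose 1.69-fold. Each of these 4 genes kept its call with size scaling. Their counterparts in the list were chosen after their values were seen. Mylk, the kinase of the myosin light chain, rose 2.14-fold. Its level was low, at 3.53 ± 0.127 CPM in KD and 1.64 ± 0.393 CPM in CON. The main profilin gene Pfn1 rose 1.13-fold. The main cofilin gene Cfl1 fell 1.15-fold with TMM but did not pass with size scaling. Of the related formin genes, Diaph1 did not pass with TMM (fold 1.02) but passed as higher with size scaling. Diaph2 fell 1.53-fold and kept its call with size scaling.

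Other cytoskeletal targets of SRF moved in both directions. Of 27 tested, 16 were lower in KD, 6 were higher and 5 did not pass; the median log2 fold change over the list was -0.23. Of the 16 that were lower, 5 (Actb, Actg1, Acta1, Cnn3 and Tpm4) are among the lower paralogs already counted. With size scaling the balance was 10 lower and 10 higher. Among all genes tested, 30.8% were lower and 32.2% higher, or 19.6% and 46% with size scaling. The alpha-actinin gene Actn4 fell 1.62-fold, to 897 ± 30.7 CPM in KD against 1453 ± 50 CPM in CON, the filamin gene Flna fell 1.46-fold, and Csrp1, a LIM protein of actin bundles, fell 1.45-fold. Those that rose include the talin gene Tln1 (1.35-fold), the integrin gene Itgb1 (1.23-fold) and the matricellular gene Ccn1 (1.26-fold). Ankrd1 rose 2.38-fold, to 4.23 ± 0.603 CPM in KD against 1.77 ± 0.0313 CPM in CON. Of 14 non-muscle actomyosin genes, 4 of which are also in the list of cytoskeletal targets and 3 among the paralogs, 5 were lower, 2 were higher and 7 did not pass, while size scaling gave 2 lower and 8 higher. The 2 that rose were the non-muscle myosin gene Myh14, 1.78-fold, and Lmod1, 2.51-fold. Lmod1 encodes a nucleator of actin filaments in smooth muscle and is counted again among the smooth muscle markers. It had 15.4 ± 1.9 CPM in KD and 6.12 ± 0.493 CPM in CON.

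Immediate early genes, the targets that SRF serves with the ternary complex factors, moved in both directions. Of 14 tested, 7 were higher in KD, 5 were lower and 2 did not pass; the median log2 fold change over the list was 0.18. With size scaling 8 were higher and 3 lower. All genes tested had 32.2% higher and 30.8% lower, or 46% and 19.6% with size scaling. Btg2, an antiproliferative gene, rose 1.91-fold, to 141 ± 1.57 CPM in KD against 74 ± 0.915 CPM in CON (edgeR adjusted p = 1.23e-10). Fos and Fosb, which encode AP-1 subunits, rose 1.53-fold and 1.54-fold, and their partner gene Junb rose 1.33-fold. The genes that fell were led by Klf6 (1.48-fold), Maff (1.49-fold), Ier2 (1.34-fold) and the anti-apoptotic gene Mcl1 (1.2-fold). The fall of Mcl1 was lost with size scaling.

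**Figure D5:**
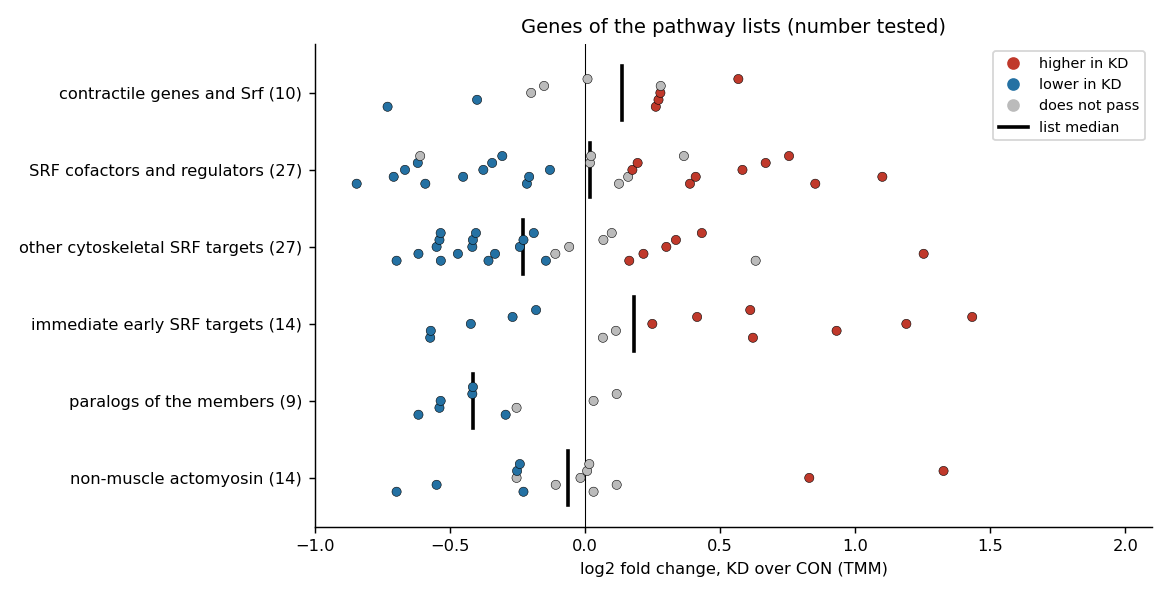
Log2 fold change of KD over CON with TMM (x axis) for every tested gene of the set and of the 5 pathway lists, 1 point per gene, coloured by whether it passed at adjusted p 0.05, with a black bar at the list's median. The medians run from -0.41 for the paralogs to 0.18 for the immediate early genes, and each list but the paralogs holds genes that passed in both directions, as the paralogs also do with size scaling.

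Markers of other cell types were measured beside the set, where 32.2% of all genes tested were higher in KD and 30.8% lower. Of 8 smooth muscle markers, 5 were higher in KD, 1 was lower and 2 did not pass. With size scaling 5 were again higher and the lower call was lost. Lmod1, Mylk and Myocd among these markers were also counted in the lists above. The summed level of the 8 was 129 to 134 CPM in KD and 93.6 to 101 CPM in CON. Myh11, the smooth muscle myosin heavy chain, had 4.11 ± 0.51 CPM in KD and 2.43 ± 0.138 CPM in CON, and Des, desmin, had 64 ± 0.528 CPM in KD and 38.4 ± 1.37 CPM in CON. Of 12 fibroblast markers, 10 were found in the table and 6 could be tested, of which 4 were higher, 1 was lower and 1 did not pass. With size scaling 5 were higher and 1 lower. The summed level of the 10 in the table was 59.7 to 70.8 CPM in KD and 31.5 to 36.8 CPM in CON. Col1a1 had 4.4 ± 0.683 CPM in KD and 2.5 ± 0.392 CPM in CON, while Col1a2 was 10.8-fold higher, at 16.6 ± 1.68 CPM in KD and 1.53 ± 0.234 CPM in CON (edgeR adjusted p = 1.48e-11). Pdgfrb, a receptor of pericytes and fibroblasts, was 2.46-fold higher, at 27.3 ± 0.961 CPM in KD and 11.1 ± 0.514 CPM in CON, and Thy1 was lower, at 5.46 ± 0.45 CPM in KD and 10.9 ± 1.15 CPM in CON. Col3a1 was near 0, with 0.0182 ± 0.0316 CPM in KD and 0.0682 ± 0.0175 CPM in CON. The smooth muscle marker that was lower was Smtn, at 36.2 ± 1.49 CPM in KD and 43.6 ± 2.68 CPM in CON (edgeR adjusted p = 0.00228). Acta2, itself a smooth muscle marker, was also lower in KD, while Myh11 and Des were higher. The part of these markers in the rises of Myl9, Tpm1, Tpm2 and Cald1 was not tested.

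The genes closest to Srf in their course over the 6 libraries were found among 9777 named genes of at least 10 CPM by the distance between log2 CPM values centred on each gene's mean. They were Tcf7l1 (distance 0.07), Irf2bpl (0.09) and Kcnh2 (0.11), with log2 fold changes of -0.74, -0.79 and -0.75, close to the -0.73 of Srf. For Tagln the closest were Maip1 (distance 0.69), Tex30 (0.70) and Rwdd1 (0.73), which lie several times farther away than the neighbours of Srf. Tagln itself stood at a mean of 0.579 CPM in KD and 0.636 CPM in CON, below the 10 CPM asked of the candidates. These distances describe 6 libraries in 2 groups and carry no test. The likeness of the neighbours' fold changes to that of Srf follows from how they were chosen.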

How the data were processed

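RNA was sequenced from 3 KD and 3 CON libraries of E14 cells. FastQC 0.11.9, STAR 2.5.3a, featureCounts and build mm10 were used, per the submitters' processing notes. These notes state no annotation release, strand setting or rule for multi-mapping reads. The authors deposited raw counts of reads per gene and FPKM, per the file headers; from the values, FPKM is the count per length and library total, and its gene lengths equal the GENCODE M21 exon unions of the 10 genes. The authors' deposited log2 fold changes and adjusted p-values come from a test that no source used here names. From 70 to 71.7% of counts from 1 to 20 were even in each library, so a low count may stand for fewer fragments than its value. Each count equalled 0.0253 to 0.0296 CPM without TMM. No 100-base window of the 10 genes' annotated transcripts occurred on the same strand in transcripts of another gene.

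Counts were tested in R 4.3.3 with edgeR 4.0.16 (filterByExpr, TMM, robust quasi-likelihood F-test, Benjamini-Hochberg), after the scripts had been tested on simulated data. The SE is the log2 fold change over the square root of F. DESeq2 1.42.0 was an alternative. Date-like entries had replaced 26 symbols, which were restored from the gene identifier. Log2 CPM for distances used a prior count of 2, and count ratios a pseudocount of 0.5. The 10 genes and the lists were chosen with earlier results of these data known. Named genes are Nat10, the 10 genes, from each list up to 4 genes in each direction with the smallest p, the myocardin and Elk factors, the actin genes, the defining markers Myh11, Des, Col1a1, Col3a1 and Tnnt2, with Col1a2, Pdgfrb and Thy1 added after their values were seen, and the 3 nearest neighbours of Srf and Tagln; some genes that this rule names are not reported here. Smtn was likewise named after its values were seen. The labels do not say whether replicate numbers pair the libraries, so the main test did not pair them.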

Additional observations from a re-analysis of the deposited data

How the results depend on the processing

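Across 13 alternatives (DESeq2's size factors in edgeR, library size only, no count filter, at least 1 CPM in 3 libraries, a replicate block, counts divided by 2, DESeq2's Wald test, and leaving out each of the 6 libraries), Srf, Myl9, Tpm1, Tpm2 and Cald1 kept their direction and passed in each. Their log2 fold changes ranged from -0.83 to -0.50, 0.52 to 0.80, 0.23 to 0.50, 0.22 to 0.49 and 0.18 to 0.51. Acta2 ranged from -0.43 to -0.17 and was lost with library size only. With library size only, 8280 genes were higher in place of 5801 and 3535 were lower in place of 5543, and 1 of the 10 was lower in place of 2. The lists then had 14 higher and 7 lower (SRF partners and regulators), 10 and 10 (cytoskeletal targets), 3 lower (immediate early), 2 higher (paralogs), and 8 higher and 2 lower (actomyosin). By its construction it adds the 0.23 shift to every gene.

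Genes that did not pass changed sign as follows. Cnn2 was at -0.00398 with DESeq2's size factors and -0.00398 in the Wald test, and ranged from -0.0446 to 0.0313 when single libraries were left out. Tagln was at 0.0774 with library size only and ranged from -0.70 to 0.0811 when single libraries were left out. Actg2 was at 0.0305 with library size only. With libraries left out the ratio of Acta2 to Actg2 changed by -0.41 to 0.0302 on the log2 scale and that of Tpm1 to Tpm2 by -0.0393 to 0.0635. Leaving out libraries gave 5247 to 5944 genes higher and 5136 to 5862 lower.

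Same-numbered libraries did not deviate together (Pearson r -0.06, 0.02 and -0.04). With 3 libraries in a group, these values cannot decide whether the same number marks a shared culture or day. With the replicate block 5559 genes were higher and 5347 lower, Srf was at -0.74 and the same 6 of the 10 genes passed. Tagln had 16 to 35 counts per library, and its fold had the widest 95% interval of the 10 genes.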

Other observations

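Genes that hold a consensus CArG box in their promoter window were counted in the same way. Of 202 such genes tested, 63 were higher in KD (31.2%), 67 were lower (33.2%) and 72 did not pass; their median log2 fold change was 0.01. Of 12403 tested genes whose window holds none, 35.4% were higher and 32.3% were lower, with a median of 0.04. With libraries scaled by size only these medians were 0.24 and 0.26. A consensus box was found in 7 of the 23 cytoskeletal targets with a window (Vcl, Fhl1, Filip1l, Lima1, Actg1, Acta1 and Actc1). It was found in 1 of the 10 immediate early genes with a window, Egr2. With up to 1 mismatch the counts were 11 of these 23 and 8 of these 10. Over all windows, counted by window and not by gene, the shares were 1.63% and 21.1%. Sites farther than 250 bases before the start lie outside these windows.

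Of 11 markers of cardiac and skeletal muscle, 8 could be tested, of which 3 were higher in KD, 1 was lower and 4 did not pass. The shares over all genes tested were 32.2% higher and 30.8% lower. The cardiac transcription factor gene Nkx2-5 was at 3.44 ± 0.656 CPM in KD and 1.26 ± 0.236 CPM in CON (edgeR adjusted p = 2.53e-05), and Tnnt1, slow skeletal troponin T, was at 43.4 ± 3.86 CPM in KD and 28.4 ± 0.537 CPM in CON (edgeR adjusted p = 2.07e-06). Myh6, a cardiac myosin heavy chain, was also higher, at 8.84 ± 0.192 CPM in KD and 5.95 ± 0.453 CPM in CON. Myl7, the atrial light chain, was lower, at 1.24 ± 0.253 CPM in KD and 2.61 ± 0.23 CPM in CON. Tnnt2, cardiac troponin T, was at 3.18 ± 0.153 CPM in KD and 3.1 ± 0.415 CPM in CON and did not pass (edgeR adjusted p = 0.844). The muscle-determining gene Myod1 was at or under the floor of 3 counts over the 6 libraries together.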
